A study of Mus musculus with 58 samples.

Results

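The integrated stress response genes described here are 10 genes of the ATF4 programme: Atf4, Ddit3, Trib3, Ppp1r15a, Asns, Psat1, Chac1, Sesn2, Fgf21 and Gdf15. They were taken by gene symbol from the 24537 genes of the deposited count table, each matched a single entry, and all 10 had counts in all 58 libraries. The libraries are polyA RNA-seq of whole livers from male C57BL6/J mice that received an AAV8 vector with the TBG promoter, which is active in hepatocytes. The vector carried Myc, a transcription factor that drives growth, or the red fluorescent protein mApple as its control. Mice were dosed by gavage 2 times a day for 30 days, with breaks at weekends, with vehicle or with ruxolitinib at 45 mg/kg, a drug that blocks the Janus kinases JAK1 and JAK2. Old mice carried Myc with ruxolitinib (14 libraries, of which 4 came from sequencing batch 1 and 10 from batch 2), Myc with vehicle (11, 6 and 5), mApple with ruxolitinib (9, 4 and 5) or mApple with vehicle (8, 4 and 4). Young mice, all in the second batch, carried Myc with ruxolitinib (10 libraries) or mApple with vehicle (6). Old mice were 25 months old (first batch) or 24 months old (second batch), and young mice were 4 months old. The crossed young groups (Myc given vehicle, mApple given the drug) were not analysed here, so the effects of vector and drug cannot be told apart in young mice. Because whole liver was sampled, fewer cells of a type and less RNA per cell cannot be told apart in any value below.

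The integrated stress response begins when kinases that sense endoplasmic reticulum stress, amino acid shortage, double-stranded RNA or haem shortage phosphorylate the alpha subunit of the translation factor eIF2. Translation falls in general while that of the transcription factor ATF4 rises, so much of the control over ATF4 lies in translation rather than in the level of its mRNA. ATF4, with partners such as CHOP (the product of Ddit3) and C/EBP proteins, induces genes of amino acid supply and redox balance, and in the liver also secreted hormones such as FGF21.

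ATF4 dimers bind C/EBP-ATF response elements, whose core was searched here as TGATGNAA on either strand in the RefSeq promoter windows of GRCm38.p6. The 250 bases before the start site held this core in 3.91% of 27025 genes and in 3 of the 10 members, Chac1, Fgf21 and Asns. These 3 promoters are shown, with the core in capitals, beside that of Psat1, which held none. Psat1 had the largest increase among the calls of the 10 members reported below. They lie at chr2:119350992-119351241 on the plus strand for Chac1, and on the minus strand at chr7:45615491-45615740 for Fgf21, chr6:7693210-7693459 for Asns and chr19:15925060-15925309 for Psat1.
Chac1: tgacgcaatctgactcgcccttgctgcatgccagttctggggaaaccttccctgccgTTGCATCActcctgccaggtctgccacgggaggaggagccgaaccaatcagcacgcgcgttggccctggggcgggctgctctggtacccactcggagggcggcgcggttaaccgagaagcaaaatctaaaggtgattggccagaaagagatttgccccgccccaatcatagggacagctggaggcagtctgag
Fgf21: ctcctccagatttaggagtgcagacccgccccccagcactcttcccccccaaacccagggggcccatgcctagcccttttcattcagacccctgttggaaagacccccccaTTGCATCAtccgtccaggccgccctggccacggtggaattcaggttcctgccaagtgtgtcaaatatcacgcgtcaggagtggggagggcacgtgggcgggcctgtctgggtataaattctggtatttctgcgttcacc
Asns: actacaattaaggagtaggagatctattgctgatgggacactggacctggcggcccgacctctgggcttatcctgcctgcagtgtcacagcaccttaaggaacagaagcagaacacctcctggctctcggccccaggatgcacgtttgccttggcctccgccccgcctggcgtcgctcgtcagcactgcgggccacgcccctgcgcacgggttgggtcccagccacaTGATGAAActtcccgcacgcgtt
Psat1: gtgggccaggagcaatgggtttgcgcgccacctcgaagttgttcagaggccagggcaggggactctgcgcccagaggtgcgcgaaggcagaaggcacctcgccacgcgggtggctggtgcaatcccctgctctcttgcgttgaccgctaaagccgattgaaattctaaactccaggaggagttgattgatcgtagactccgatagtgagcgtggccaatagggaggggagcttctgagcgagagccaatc
Chac1 and Fgf21 held the same 8 letters, TTGCATCA, which is the core read on the opposite strand, and their first base lay at position -193 of Chac1 and -139 of Fgf21, where -1 is the last base before the start site. In Asns the core was TGATGAAA at position -23, counted from the RefSeq start at 7693209 (the count table starts the gene at 7693182). Trib3 held a match only after its start site, at position 15. The E-box CACGTG, a sequence that MYC and its partner MAX bind, was found before the start in 6.86% of genes and in 2 members, Fgf21 at position -50 and Gdf15 at -83, and it does not overlap the other core. These matches describe the letters only, and no binding was measured.

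The libraries held 10.68 to 40.98 M counts in exons (median 14.6 M). Levels are given as CPM, a gene's count divided by the library's total in M, with TMM scaling over all 58 libraries. Genes were tested with edgeR, p-values were adjusted by Benjamini-Hochberg over all genes tested, and a gene was called at an adjusted p under 0.05. Changes are log2 fold changes ± standard error. Each library is its own sample by its label, and p-values measure the spread among samples of one experiment. In the check of the vector, Myc stood at a median of 32.9 CPM in old Myc ruxolitinib, 37.8 CPM in old Myc vehicle, 7.67 CPM in old mApple ruxolitinib, 15.6 CPM in old mApple vehicle, 50.9 CPM in young Myc ruxolitinib and 8.28 CPM in young mApple vehicle livers. The old vehicle groups overlapped (6.85 to 132 CPM with Myc and 2.93 to 56.8 CPM with mApple), and library 870, labelled old Myc vehicle, was the lowest of its group. The defining hepatocyte genes (12, Alb among them) were above 0 in every library. Libraries 860 and 861 (old Myc ruxolitinib) stood apart by 5192 and 3306 summed CPM of 10 Kupffer cell and macrophage genes, against a median of 431 in their group, and library 864 (old mApple ruxolitinib) by 914 summed CPM of 9 neutrophil genes, against a median of 3.79 in its group.

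Per kilobase of exon, the level of Atf4 was the highest of the 10, with a median over all libraries of 56.8 CPM per kb. Gdf15 (6.71), Ddit3 (6.34) and Ppp1r15a (5.77 CPM per kb) came next, then Sesn2 (3.64), Trib3 (2.78) and Asns (2.73 CPM per kb). Chac1 (1.43), Fgf21 (0.766) and Psat1 (0.674 CPM per kb) were lowest. The low members rest on few counts per library, with a median of 12 for Fgf21 (2 to 105), 26 for Psat1 (5 to 362) and 34.5 for Chac1 (3 to 166).

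**Figure D1:**
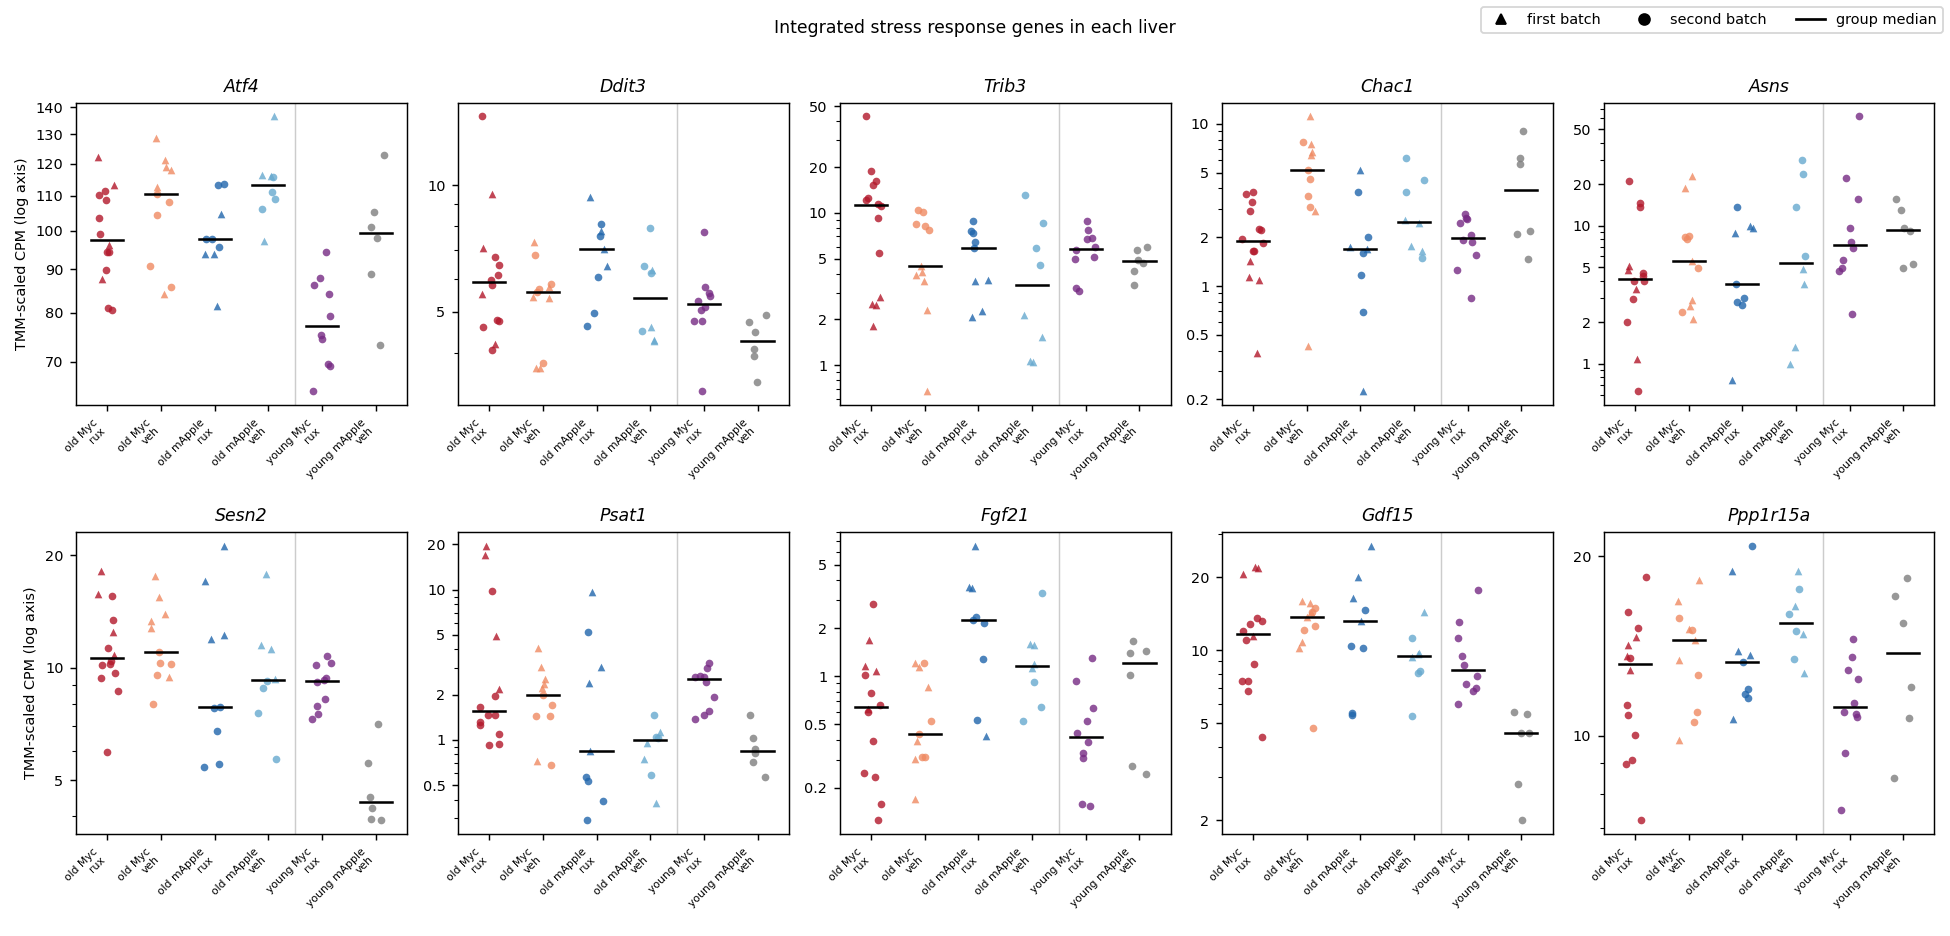
TMM-scaled CPM (log axis, a separate scale for each gene) of the 10 genes in each liver, by group (Myc, mApple; rux, ruxolitinib; veh, vehicle). Triangles are libraries of the first batch, circles those of the second and bars the group medians. Young livers with Myc and ruxolitinib sit above young livers with mApple and vehicle in Sesn2 (7.30 to 10.7 CPM against 3.91 to 7.07 CPM), while most other groups overlap. How many of all genes separate these groups was not counted.

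Over 10 comparisons, 2 of them interactions, 13 of 99 tests of a member were called. They fell on 7 of the 10 genes, and Ddit3, Asns and Ppp1r15a were called in none. In young livers with Myc and ruxolitinib, compared with mApple and vehicle, 5 of 10 members were called, 3 higher and 2 lower. Of all 12808 genes tested, 27.5% were called, 13.5% higher and 14% lower. The same contrast in old livers called 2 of 10 (1 higher, 1 lower), with 17.5% of all genes (10.1% higher, 7.47% lower). Myc against mApple called 2 of 10 under vehicle (1 higher, 1 lower), with 18.8% of all genes (10.8% higher, 8.01% lower). Under ruxolitinib it called 1 of 10, lower, with 14.4% of all genes (8.4% higher, 5.96% lower). Ruxolitinib against vehicle called 1 of 10 in old Myc livers, lower, with 0.545% of all genes (0.0436% higher, 0.502% lower). In old mApple livers it called 0 of 10, with 0.391% of all genes (0.00738% higher, 0.384% lower). Old against young called 2 of the 9 members tested in Myc ruxolitinib livers, both higher, with 33.7% of all genes (18.1% higher, 15.6% lower). In mApple vehicle livers it called 0 of 10, with 1.1% of all genes (0.859% higher, 0.243% lower).

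The shares of members called stand on few genes and, apart from the young contrast, lay near or below those of all genes in the comparisons where many genes were called. The median log2 fold change of the members was 0.29 in the young contrast, against -0.01 for all genes, and 0.48 against 0.00 for old over young mApple vehicle livers. It was 0.22 against 0.02 for old over young Myc ruxolitinib livers. In the comparisons within old livers it lay between -0.03 (Myc over mApple under ruxolitinib) and 0.15 (ruxolitinib over vehicle in mApple livers).

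**Figure D2:**
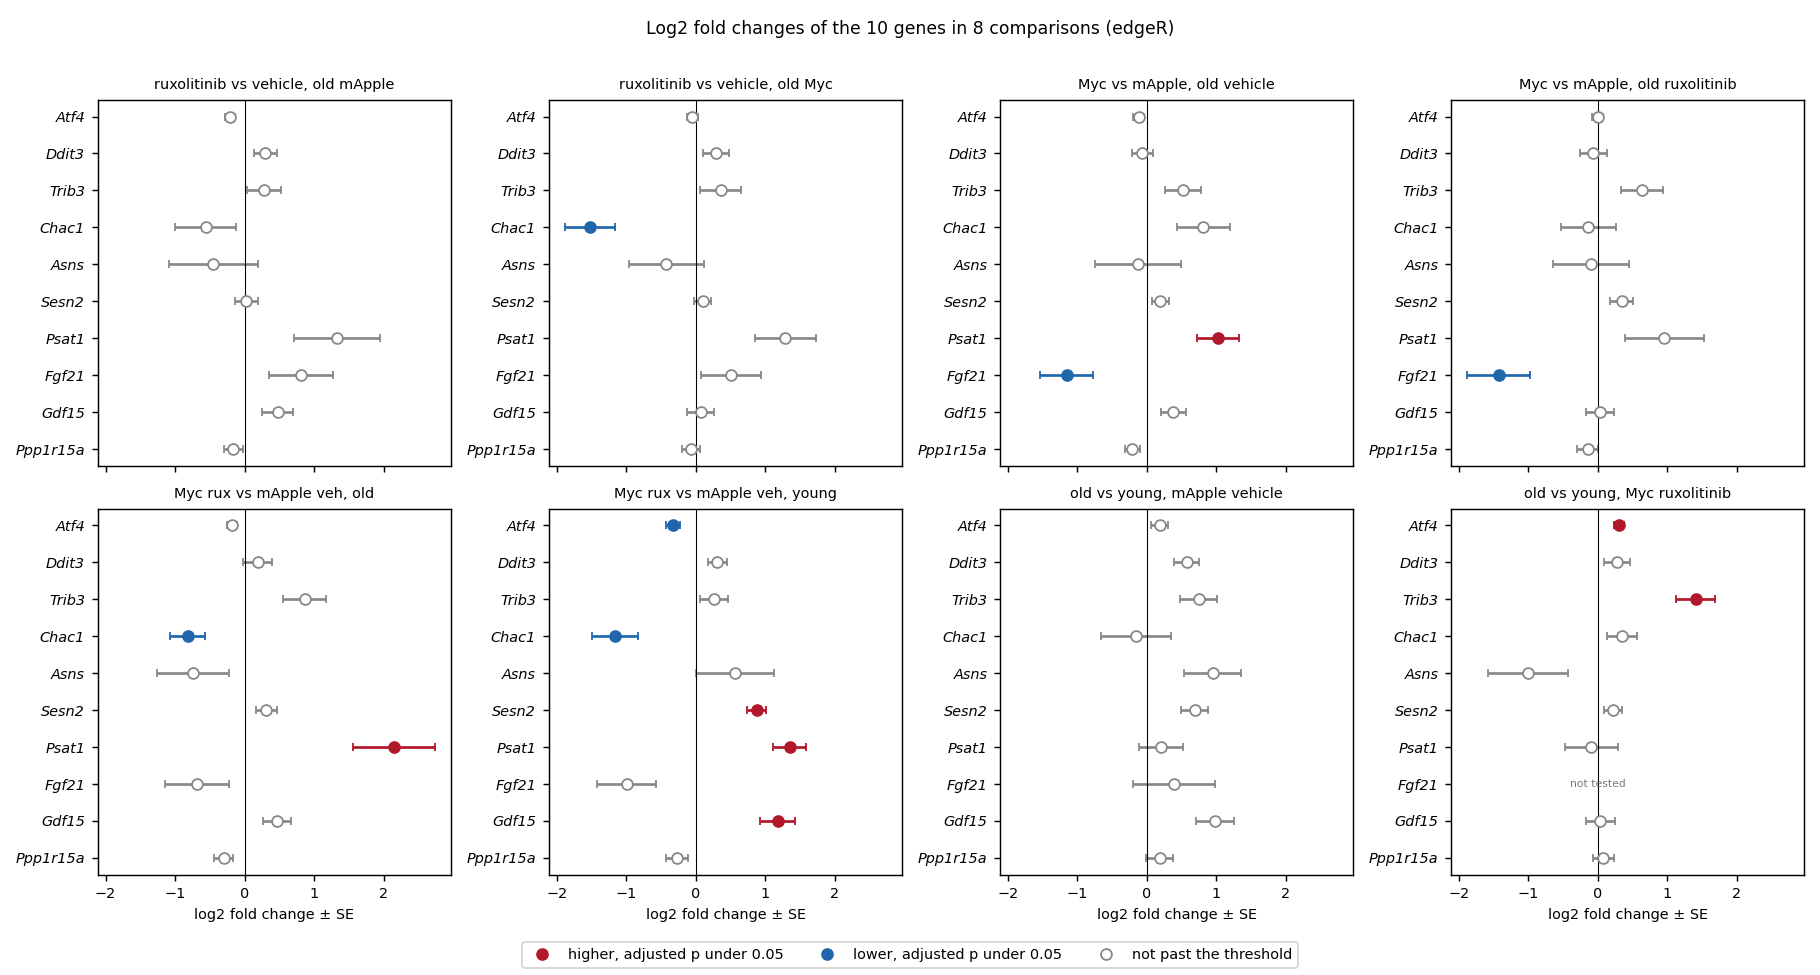
Log2 fold change ± standard error (edgeR) of each gene in 8 comparisons, with the first-named group over the second. Filled points passed an adjusted p of 0.05 (red higher, blue lower) and open points did not; the calls are spread over Psat1 (3 higher), Chac1 (3 lower), Fgf21 (2 lower), Atf4 (1 lower, 1 higher), Sesn2, Gdf15 and Trib3 (1 higher each).

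Among the regulators, Atf4 itself changed little. In young livers it stood at 64.6, 77.2 and 94.3 CPM (here and below the lowest, median and highest library of a group) with Myc and ruxolitinib, and at 73.3, 99.4 and 123 CPM with mApple and vehicle. The groups overlapped, with 3 of 10 Myc ruxolitinib livers below every mApple vehicle liver and 4 of 6 mApple vehicle livers above every Myc ruxolitinib liver, and the change was -0.32 ± 0.10 (adjusted p = 0.0175). The call was lost without library 1131, the highest mApple vehicle liver (-0.25, adjusted p = 0.0609). In old second-batch livers with Myc and ruxolitinib, Atf4 stood at 80.6, 96.7 and 112 CPM, against the same young Myc ruxolitinib livers, and 6 of the 10 old livers lay above every young one. That difference was 0.31 ± 0.07 (adjusted p = 0.00331) and was kept without any 1 of the 20 libraries. Both calls share the young Myc ruxolitinib livers. The remaining old groups had medians of 97.6 (Myc ruxolitinib, both batches), 111 (Myc vehicle), 97.7 (mApple ruxolitinib) and 113 CPM (mApple vehicle) with ranges that overlapped, and Atf4 was called between none of them.

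Trib3, a pseudokinase induced by ATF4 and CHOP that restrains the kinase AKT, separated the sequencing batches among old livers. Its level was 4.57, 9.06 and 43.0 CPM in the 24 old livers of the second batch and 0.679, 2.40 and 4.50 CPM in the 18 of the first. The batches did not overlap, which held for 0.605% of 14046 genes and for no other member. The older mice were in the first batch, so age, batch and whatever else differed between the batches cannot be told apart. Sesn2 and Gdf15 went the other way in overlapping ranges, with medians of 9.29 and 10.3 CPM in the second batch and 13.0 and 14.3 CPM in the first.

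Within the second batch, Trib3 was higher in old than in young livers with Myc and ruxolitinib. The 10 old livers had 5.42, 12.3 and 43.0 CPM and the 10 young livers 3.06, 5.82 and 8.85 CPM, and 9 of the 10 old livers lay above every young one. The change was 1.41 ± 0.28 (2.65-fold, adjusted p = 7.13e-04), and the call was kept without any 1 of the 20 libraries (1.10 to 1.51). In mApple vehicle livers of the same batch Trib3 stood at 4.57, 5.86, 8.53 and 13.1 CPM in the 4 old livers, against 3.34, 4.81 and 6.01 CPM in the 6 young livers (0.75 ± 0.26, adjusted p = 0.174). Of markers that moved with the call, 3 of 3 tested B and plasma cell genes, 3 of 10 Kupffer cell genes and 3 of 4 fetal genes were higher in the old Myc ruxolitinib livers. Of 6 endothelial genes 4 were lower, and of 12 hepatocyte genes 2 were higher and 3 lower. The only tested neutrophil gene, S100a9 (1.67 ± 0.37), and 1 of 4 bile duct genes, Spp1 (0.42 ± 0.13), were higher. Of 7 stellate cell genes 1 was lower, Reln (-0.96 ± 0.25). The comparison called 33.7% of all genes. The 10 Kupffer cell genes summed to 184.5 to 484 CPM in these old livers and to 163 to 366 CPM in the young livers, none at 0. The part of all these markers in the Trib3 difference was not tested.

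In old livers with Myc and ruxolitinib Trib3 had 1.82, 11.3 and 43.0 CPM, against 1.05, 3.36 and 13.1 CPM with mApple and vehicle. These values pool the batches, which Trib3 separated and which the groups hold in unequal shares. The medians were 2.50 and 1.30 CPM in the first batch and 12.3 and 7.19 CPM in the second. With batch in the fit, the comparison fell just short of the threshold (0.86 ± 0.30, adjusted p = 0.0530). It was 0.74 ± 0.29 in the first batch alone and 0.91 ± 0.43 in the second, and DESeq2 called it (0.86 ± 0.30, adjusted p = 0.0236). Removal of single libraries called it in 5 of 22 cases, at the most without library 1150 (0.93, adjusted p = 0.0272).

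Ddit3, which encodes CHOP, had medians between 4.28 CPM (young mApple vehicle) and 7.07 CPM (old mApple ruxolitinib), with ranges that overlapped between all groups within an age. Old mApple vehicle livers had 4.52, 6.20, 6.42 and 7.93 CPM and young ones 3.41, 4.28 and 4.91 CPM in the second batch, with 3 of the 4 old livers above every young one (0.57 ± 0.18, adjusted p = 0.139, and 0.0293 by limma voom). The highest Ddit3 level of all was 14.6 CPM in library 1154, an old Myc ruxolitinib liver. Ddit3 shares 68 exon bases with Mars on the opposite strand, and since the file header gives no strand option, reads there may not be told apart by strand. Ppp1r15a, whose product GADD34 leads protein phosphatase 1 to eIF2 and so ends the response, had medians from 11.2 CPM (young Myc ruxolitinib) to 15.5 CPM (old mApple vehicle). Its changes were small in all 8 comparisons (-0.30 to 0.18), and none was called.

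Psat1, the aminotransferase of serine synthesis, rose in 3 comparisons with Myc. In young livers it had 1.38, 2.53 and 3.24 CPM with Myc and ruxolitinib and 0.568, 0.842 and 1.45 CPM with mApple and vehicle. All but 1 of the 10 Myc ruxolitinib livers lay above every mApple vehicle liver, and the change was 1.35 ± 0.24 (2.55-fold, adjusted p = 2.91e-04), kept without any 1 of the 16 libraries. In a single fit of all 58 libraries, whose estimate of the spread includes the old livers, it was 1.35 ± 0.59 (adjusted p = 0.106).

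In old livers Psat1 had 0.922, 1.57 and 19.6 CPM with Myc and ruxolitinib, 0.683, 1.97 and 4.08 CPM with Myc and vehicle, 0.292, 0.848 and 9.64 CPM with mApple and ruxolitinib, and 0.381, 0.994 and 1.47 CPM with mApple and vehicle. Long upper tails marked the ruxolitinib groups, while no mApple vehicle liver exceeded 1.47 CPM. Myc with ruxolitinib over mApple with vehicle gave 2.15 ± 0.59 (4.43-fold, adjusted p = 0.0141), with 8 of 14 livers above every mApple vehicle liver, and the call was kept without any 1 of the 22 libraries (1.76 to 2.45). The size rested on the first batch: the change was 3.80 ± 0.74 (adjusted p = 0.0305) there and 1.04 ± 0.64 (adjusted p = 0.306) in the second batch alone.

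Libraries 860 and 861, with the high macrophage genes, also had the highest Psat1 levels, 17.1 and 19.6 CPM. Across the groups the 10 Kupffer cell and macrophage genes, none at 0 in any library, summed to 184.5 to 5192 CPM in old Myc ruxolitinib and 275 to 774 CPM in old mApple vehicle livers, and 0 of the 10 were called in this comparison, in which 3 of 12 hepatocyte and 3 of 6 endothelial genes were lower. The comparison called 17.5% of all genes (7.47% lower). Without libraries 860, 861, 864 and 865, of which only 860 and 861 belong to this contrast, the Psat1 change was 1.43 ± 0.48 (adjusted p = 0.0372). Library 1154, with 9.78 CPM of Psat1, had 248 summed CPM of macrophage genes, within the range of the other livers. Libraries 865 and 1140 (mApple ruxolitinib), at 9.64 and 5.22 CPM of Psat1, had 508 and 486 summed CPM. Library 865 was the highest of its group for Psat1 and for Fgf21 (6.57 CPM). Its macrophage sum lay within its group's range of 191 to 1185 CPM.

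Under vehicle, Psat1 was higher with Myc than with mApple in old livers (1.02 ± 0.31, 2.03-fold, adjusted p = 0.0247), with 7 of 11 Myc livers above every mApple liver. The call was lost without library 855 (0.88, adjusted p = 0.0611) or 863 (0.95, adjusted p = 0.0551), both mApple. It was 1.60 ± 0.44 in the first batch alone (adjusted p = 0.0521), 0.49 ± 0.34 in the second (adjusted p = 0.438) and 0.91 ± 0.52 in a single fit of all 58 libraries (adjusted p = 0.255). In this comparison 4 of 12 hepatocyte genes and 5 of 6 endothelial genes were lower and no Kupffer cell gene was called. Of all genes, 18.8% were called in it (8.01% lower). The hepatocyte genes summed to 92432 to 168786 CPM with Myc and 129631 to 227952 CPM with mApple, and their part in the Psat1 change was not tested. Under ruxolitinib the Myc difference was 0.95 ± 0.57 (adjusted p = 0.273), but 1.84 (adjusted p = 0.0275) without library 1140. Ruxolitinib over vehicle gave 1.29 ± 0.44 (adjusted p = 0.231) in Myc livers and 1.32 ± 0.62 (adjusted p = 0.501) in mApple livers. In Myc livers it was 2.21 ± 0.58 (adjusted p = 0.0434) in the first batch alone and 0.56 ± 0.41 (adjusted p = 0.913) without libraries 860, 861, 864 and 865.

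Between old and young Myc ruxolitinib livers of the second batch Psat1 was at -0.10 ± 0.38 (adjusted p = 0.871), with 0.922, 1.39 and 9.78 CPM in old and 1.38, 2.53 and 3.24 CPM in young livers. Library 1154 decided that value. Without it Psat1 was lower in old livers (-0.76, adjusted p = 0.00254), and limma voom with quality weights called the decrease with all libraries kept (-0.75 ± 0.20, adjusted p = 0.00575).

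**Figure D3:**
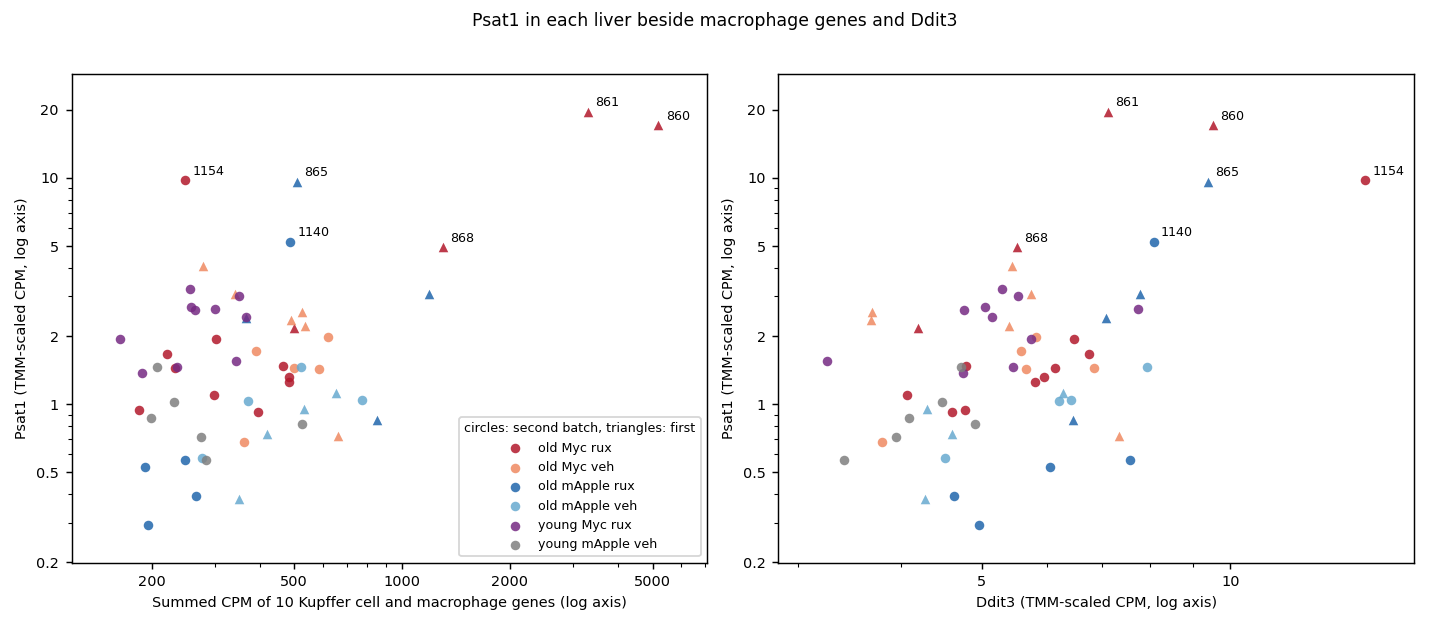
Psat1 CPM in each of the 58 livers (log axes) against the summed CPM of 10 Kupffer cell and macrophage genes (left) and against Ddit3 CPM (right), coloured by group, with circles for the second batch and triangles for the first. Libraries 860 and 861 are highest for Psat1 and for the macrophage genes, whereas library 1154, at 9.78 CPM of Psat1, is highest for Ddit3 (14.6 CPM) and low for the macrophage genes (248 CPM).

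Asns, which makes asparagine and is a classic amino acid response gene, varied more between livers of a group than between groups. Its range was 0.638 to 21.0 CPM in old Myc ruxolitinib livers, 2.10 to 23.0 CPM in old Myc vehicle, 0.763 to 13.6 CPM in old mApple ruxolitinib and 0.991 to 30.2 CPM in old mApple vehicle livers. Young livers had 2.30 to 62.0 CPM with Myc and ruxolitinib and 4.91 to 15.7 CPM with mApple and vehicle. No comparison was called, and the batches gave opposite signs. Ruxolitinib over vehicle in mApple livers was 1.44 ± 0.68 in batch 1 and -1.84 ± 0.57 in batch 2, and Myc over mApple under vehicle was 1.72 ± 0.75 in batch 1 and -1.53 ± 0.44 in batch 2.

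Chac1, an enzyme that degrades glutathione and a target of ATF4 and CHOP, fell in all 3 of its calls, each with Myc and ruxolitinib. In old Myc livers it had 0.387, 1.89 and 3.82 CPM with ruxolitinib and 0.425, 5.20 and 11.1 CPM with vehicle. Of the 11 vehicle livers 7 lay above every ruxolitinib liver, while library 866, at 0.425 CPM, lay among the lowest. The change was -1.52 ± 0.36 (0.348-fold, adjusted p = 0.0462). The call was lost without any 1 of 21 of the 25 libraries, with an adjusted p of up to 0.126 (-1.46, without library 1147). Its size stayed between -1.66 and -1.35 in all 25 cases. It was -2.50 ± 0.68 (adjusted p = 0.0503) in the first batch alone, -0.92 ± 0.25 (adjusted p = 0.206) in the second alone, and -1.24 ± 0.35 (adjusted p = 0.140) without libraries 860, 861, 864 and 865. In mApple livers ruxolitinib over vehicle gave -0.56 ± 0.44 (adjusted p = 0.684), with 0.226, 1.70 and 5.23 CPM with ruxolitinib and 1.49, 2.49 and 6.13 CPM with vehicle. The difference between the drug's effects in Myc and mApple livers was -0.95 ± 0.57 (adjusted p = 0.816), so an unequal effect was not shown.

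Against mApple with vehicle, Myc with ruxolitinib lowered Chac1 at both ages. In old livers the change was -0.82 ± 0.25 (0.566-fold, adjusted p = 0.0257), with 4 of 14 livers below every mApple vehicle liver, and it was lost without library 1137 (-0.69, adjusted p = 0.0861) and without libraries 860, 861, 864 and 865 (-0.67 ± 0.24, adjusted p = 0.0550). It was not called in the first batch alone (-1.07 ± 0.38, adjusted p = 0.0924), in the second alone (-0.68 ± 0.31, adjusted p = 0.165), or with limma voom (-0.48 ± 0.31, adjusted p = 0.294). Young livers had 0.842, 1.99 and 2.76 CPM with Myc and ruxolitinib and 1.47, 3.90 and 9.02 CPM with mApple and vehicle, a change of -1.16 ± 0.33 (0.447-fold, adjusted p = 0.0127). Only 3 of the 6 young mApple vehicle livers lay above every Myc ruxolitinib liver, and without the highest of them, library 1132, the change was -0.84 (adjusted p = 0.0568). The old contrast shares its Myc ruxolitinib livers with the drug comparison above, so these values are not independent of each other. Under vehicle, Myc over mApple was 0.81 ± 0.38 in old livers (adjusted p = 0.142, and called by limma voom at 1.08). That value was 0.91 without library 866, which had an adjusted p of 0.0430.

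In the young contrast the 12 hepatocyte genes summed to 91722 to 121098 CPM with Myc and ruxolitinib and to 131998 to 221667 CPM with mApple and vehicle, with 1 gene higher and 4 lower, none at 0. These sums did not overlap. Of 10 Kupffer cell genes 0 were called, of 6 endothelial genes 1 was higher and 1 lower, and the only tested genes of the B and plasma cell list (Jchain, -1.03 ± 0.26) and of the T cell list (Cd4, -1.21 ± 0.24) were lower. The contrast called 27.5% of all genes (14% lower). The part of these markers in the 5 calls of the young contrast was not tested.

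Sesn2 encodes a leucine sensor that restrains mTORC1 and is induced by p53 as well as by ATF4. In young livers it had 7.30, 9.20 and 10.7 CPM with Myc and ruxolitinib and 3.91, 4.36 and 7.07 CPM with mApple and vehicle. The groups did not overlap. How many of all genes had ranges without overlap was not counted, and 27.5% were called in this contrast. The change was 0.87 ± 0.14 (1.83-fold, adjusted p = 9.06e-05), kept without any 1 of the 16 libraries (0.82 to 1.01). The corresponding change in old livers was 0.31 ± 0.15 (adjusted p = 0.163), with 5.95, 10.6 and 18.1 CPM against 5.70, 9.27 and 17.8 CPM. In the old livers of the second batch alone it was 0.39 ± 0.19 (adjusted p = 0.200). The difference of the effects, old minus young, was fitted on the 30 second-batch libraries of these groups and was -0.49 ± 0.23 (unadjusted p = 0.0396, adjusted p = 0.330, edgeR).

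Gdf15 encodes a stress hormone of the TGF-beta family that acts on the hindbrain and, like Sesn2, is induced by p53. Young livers had 5.99, 8.27 and 17.7 CPM with Myc and ruxolitinib and 2.00, 4.58 and 5.56 CPM with mApple and vehicle, again without overlap. Here too the share of all genes without overlap was not counted. The change was 1.18 ± 0.25 (2.26-fold, adjusted p = 0.00153), kept without any 1 of the 16 libraries (1.03 to 1.28). In old livers the corresponding change was 0.47 ± 0.20 (adjusted p = 0.106), with 4.39, 11.7 and 22.1 CPM against 5.37, 9.52 and 14.3 CPM. In the second batch alone it was 0.22 ± 0.27 (adjusted p = 0.622), and in the same 30 second-batch libraries the difference of the effects, old minus young, was -0.97 ± 0.37 (unadjusted p = 0.0143, adjusted p = 0.233, edgeR).

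In mApple vehicle livers of the second batch Gdf15 had 5.37, 8.07, 8.22 and 11.3 CPM in the 4 old livers and 2.00, 4.58 and 5.56 CPM in the 6 young livers, and 3 of the 4 old livers lay above every young one. The change was 0.98 ± 0.28 (adjusted p = 0.103). Sesn2 in the same livers had 5.70, 7.58, 8.80 and 9.20 CPM against 3.91, 4.36 and 7.07 CPM (0.69 ± 0.20, adjusted p = 0.115). These livers gave 0 calls of 10 with edgeR and 5 at an unadjusted p under 0.05 (Ddit3, Trib3, Asns, Sesn2 and Gdf15), 2 with DESeq2 (Sesn2 and Gdf15, adjusted p = 0.0361 and 0.0204) and 2 with limma voom (Ddit3 and Gdf15, adjusted p = 0.0293 and 0.0153). Of all 13155 genes tested, 2337 had an unadjusted p under 0.05 with edgeR, while DESeq2 called 649 and limma voom 1640. In the old mApple vehicle livers both tested neutrophil genes, S100a8 (2.67 ± 0.46) and S100a9 (2.26 ± 0.40), 1 of 5 B and plasma cell genes, Jchain (2.79 ± 0.33), and 1 of 5 T cell genes, Cd8a (2.88 ± 0.59), were higher. With edgeR 1.1% of all genes were called (0.859% higher). Of 10 Kupffer cell genes 0 were called, with a median log2 fold change of 0.87 and sums of 275 to 774 CPM in old and 199 to 525 CPM in young livers. The part of these markers in the members' values was not tested. In old against young Myc ruxolitinib livers neither was called (Sesn2 0.22 ± 0.12, Gdf15 0.04 ± 0.21).

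Fgf21, a liver hormone of fasting and nutrient stress that is induced by PPAR-alpha as well as by ATF4, was lower with Myc in old livers under both treatments, in comparisons that share no library. Under vehicle it had 0.170, 0.435 and 1.21 CPM with Myc and 0.521, 1.16 and 3.33 CPM with mApple, with 6 of 11 Myc livers below every mApple liver. The change was -1.15 ± 0.38 (0.449-fold, adjusted p = 0.0370), lost without any 1 of 9 of the 19 libraries and smallest without library 1137 (-0.74, adjusted p = 0.130). Under ruxolitinib it had 0.126, 0.641 and 2.84 CPM with Myc and 0.423, 2.26 and 6.57 CPM with mApple, with 5 of 14 Myc livers below every mApple liver. That change was -1.43 ± 0.45 (0.371-fold, adjusted p = 0.0358), lost without any 1 of 8 of the 23 libraries, with the highest adjusted p, 0.0703, without library 865 (-1.25). Neither batch alone was called, with -1.03 and -1.26 under vehicle and -1.63 and -1.31 under ruxolitinib, first and second batch in turn.

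The Fgf21 decreases came beside lower hepatocyte genes: 4 of 12 were lower under vehicle and 2 of 12 under ruxolitinib, with none higher and none at 0 in any library. Of 6 endothelial genes, 5 were lower under vehicle and 2 under ruxolitinib. Of all genes, 18.8% were called under vehicle (8.01% lower) and 14.4% under ruxolitinib (5.96% lower). Single genes of other lists were also called, Des of the stellate cell list under vehicle (-0.38 ± 0.12), Epcam of the bile duct list under ruxolitinib (-1.01 ± 0.33) and the fetal gene H19 under both (1.83 ± 0.52 under vehicle and 1.53 ± 0.38 under ruxolitinib). Under ruxolitinib the 12 hepatocyte genes summed to 52906 to 191756 CPM with Myc (median 115423) and 54209 to 192947 CPM with mApple (median 175290). The part of these markers in the change was not tested. The young contrast gave a fold of 0.501 for Fgf21 (standard error 0.42 on the log2 scale, adjusted p = 0.0876), with 0.153, 0.414 and 1.30 CPM with Myc and ruxolitinib and 0.245, 1.21 and 1.67 CPM with mApple and vehicle. Ruxolitinib over vehicle was 0.81 ± 0.46 in mApple livers (adjusted p = 0.568) and 0.51 ± 0.43 in Myc livers (adjusted p = 0.578). In old against young Myc ruxolitinib livers Fgf21 did not pass the filter on low counts and was not tested.

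A further pair of tests asked whether effects differ between conditions. The interaction of vector and drug in old livers called 0 of 10 members and 0% of 14046 genes with edgeR (735 genes and 0 members at an unadjusted p under 0.05), and DESeq2 and limma voom also called 0 genes. The interaction of age with Myc and ruxolitinib, in the second batch only, called 0 of 10 members and 0.287% of 13609 genes with edgeR. At an unadjusted p under 0.05 there were 3 members (Gdf15, Asns and Sesn2) and 1914 of the 13609 genes. DESeq2 and limma voom called 0 members. Ruxolitinib over vehicle in mApple livers, which called 0 of 10 with edgeR, DESeq2 and limma voom, had 3 members at an unadjusted p under 0.05, Atf4 (-0.21 ± 0.08), Gdf15 (0.47 ± 0.22) and Psat1 (1.32 ± 0.62). Of all 13554 genes tested there, 1327 had an unadjusted p under 0.05 with edgeR.

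Upstream of ATF4, of 16 genes for eIF2, its exchange factor eIF2B, its kinases and phosphatase, 5 were higher and 0 lower with Myc under vehicle (median log2 fold change 0.08, against -0.02 for all genes), and 5 and 0 under ruxolitinib (0.12 against 0.01), where 18.8% and 14.4% of all genes were called in either direction. They include Eif2b3, a subunit of eIF2B (0.51 ± 0.10), and Eif2s1, which encodes the phosphorylated subunit eIF2 alpha (0.38 ± 0.10), under vehicle, and Ppp1ca, the phosphatase subunit (0.23 ± 0.06), under ruxolitinib. With Myc and ruxolitinib against mApple and vehicle, 4 were higher and 1 lower in old livers and 5 higher and 2 lower in young livers, among them Eif2b1 (0.43 ± 0.07 in young). Of all genes, 17.5% were called in the old and 27.5% in the young contrast. Eif2ak2, the kinase PKR that senses double-stranded RNA and is itself induced by interferon, was the one gene of this list called for the drug. It was lower with ruxolitinib in mApple livers (-0.70 ± 0.14, 11.3 ± 2.23 against 18.2 ± 5.02 CPM, mean ± SD, n = 9 and 8, edgeR adjusted p = 0.0394) and in Myc livers (-0.69 ± 0.15, 16.8 ± 3.95 against 26.4 ± 7.75 CPM, n = 14 and 11, edgeR adjusted p = 0.0314). Old against young Myc ruxolitinib livers had 0 higher and 4 lower, led by Eif2s3x (-0.23 ± 0.05), where 33.7% of all genes were called.

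Aminoacyl-tRNA synthetases charge tRNAs and are induced by ATF4 but also in growing cells. Of 15, 7 were higher and 2 lower with Myc under vehicle (median 0.18, against -0.02 for all genes), 4 and 1 under ruxolitinib (0.17 against 0.01), 4 and 2 in old livers with Myc and ruxolitinib against mApple and vehicle (0.17 against 0.02), and 9 and 3 in young livers (0.23 against -0.01). Of all genes, 18.8%, 14.4%, 17.5% and 27.5% were called in these comparisons in turn (10.8%, 8.4%, 10.1% and 13.5% higher). In young livers Iars (0.68 ± 0.07, 103 ± 7.93 against 64.3 ± 5.85 CPM, n = 10 and 6) and Kars (0.34 ± 0.05) led, whereas Aars (-0.49 ± 0.09) and Tars (-0.50 ± 0.10) fell in old livers. Old against young Myc ruxolitinib livers had 0 higher and 8 lower (-0.16 against 0.02), led by Iars (-0.49 ± 0.08). That comparison called 33.7% of all genes (15.6% lower).

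Some other genes of amino acid synthesis and one-carbon metabolism were called. Of all genes, Myc against mApple called 18.8% under vehicle and 14.4% under ruxolitinib. With Myc under vehicle 1 of 14 tested was higher, Psph (0.38 ± 0.12), the last enzyme of serine synthesis, and 0 were lower. Under ruxolitinib 0 were higher and 1 lower, Cbs (-0.69 ± 0.10), the entry enzyme of transsulfuration. Myc with ruxolitinib against mApple with vehicle had 1 higher and 2 lower of 12 at each age, where 17.5% (old) and 27.5% (young) of all genes were called. Mthfd1l, a mitochondrial folate enzyme, rose in old livers (1.45 ± 0.35), Mthfd2 rose in young livers (0.79 ± 0.24), and Cbs and Glul, the glutamine synthetase, fell at both ages (Glul -0.74 ± 0.19 in old and -0.79 ± 0.19 in young livers). Of the amino acid transporters, 1 of 10 was called with Myc under ruxolitinib, Slc43a1 (0.80 ± 0.23), and 2 of 9 in young livers, Slc1a5 (0.56 ± 0.20) and Slc38a2 (-0.44 ± 0.13). In old against young Myc ruxolitinib livers 0 of 9 were higher and 3 lower, Slc7a5 (-0.43 ± 0.13), Slc36a4 (-0.45 ± 0.15) and Slc7a1 (-0.48 ± 0.18). That comparison called 33.7% of all genes (15.6% lower), and the median of the 9 was 0.05, against 0.02 for all genes.

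Among other targets of ATF4 and CHOP, 3 of 15 were higher and 3 lower in young livers with Myc and ruxolitinib, where 27.5% of all genes were called. Tnfrsf10b, a death receptor that is also a p53 target, rose by 2.15 ± 0.26 (2.54 ± 0.618 against 0.559 ± 0.267 CPM) and Ddit4, an inhibitor of mTORC1, by 1.46 ± 0.20 (24.2 ± 5.41 against 8.71 ± 3.47 CPM), while Vegfa fell (-0.51 ± 0.07). In the same livers 9 of 13 p53 targets were higher and 0 lower (median 0.39, against -0.01 for all genes), led by Eda2r (3.35 ± 0.25, 7.07 ± 1.71 against 0.693 ± 0.372 CPM) and Zmat3 (1.10 ± 0.09). In old livers 4 of 13 p53 targets were higher in the same contrast, 3 with Myc under vehicle and 3 under ruxolitinib, and 0 were lower in each. Of all genes, 17.5%, 18.8% and 14.4% were called in these old comparisons in turn (10.1%, 10.8% and 8.4% higher). The p53 targets rose in the young contrast, in which Sesn2 and Gdf15, also targets of p53, were called, and the share of either factor was not tested.

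Among 14 partner transcription factors, those called in old livers were lower: Atf6 with Myc under vehicle (-0.39 ± 0.07), and Cebpg (-0.41 ± 0.08), Atf6 (-0.33 ± 0.07) and Xbp1 (-0.53 ± 0.14) in old livers with Myc and ruxolitinib against mApple and vehicle. In young livers 3 of 12 were lower, led by Xbp1 (-0.70 ± 0.12), and 1 higher, Crebzf (0.27 ± 0.08). The endoplasmic reticulum chaperones and XBP1 or ATF6 targets had 2 of 20 higher and 1 lower with Myc under vehicle, 0 and 1 under ruxolitinib, and 4 and 1 in the young contrast, against 18.8%, 14.4% and 27.5% of all genes called in either direction. In old against young Myc ruxolitinib livers 14 of 20 were lower and 0 higher (median -0.33, against 0.02 for all genes). Of all genes, 33.7% were called there (15.6% lower). Derl3, a factor of protein export from the endoplasmic reticulum, had 1.70 ± 0.924 CPM in the old and 5.38 ± 3.18 CPM in the young livers (-1.65 ± 0.34), and the ubiquitin ligase gene Syvn1 was also lower (-0.83 ± 0.19). In the same comparison Trib3 and Atf4 were higher. PPAR-alpha targets, which share with Fgf21 control by that receptor, had 1 of 14 higher with Myc under vehicle (Acot2, 0.72 ± 0.24) and 2 of 14 lower under ruxolitinib, Pdk4 (-1.34 ± 0.27) and Plin2 (-0.54 ± 0.14), in comparisons that called 18.8% and 14.4% of all genes.

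**Figure D4:**
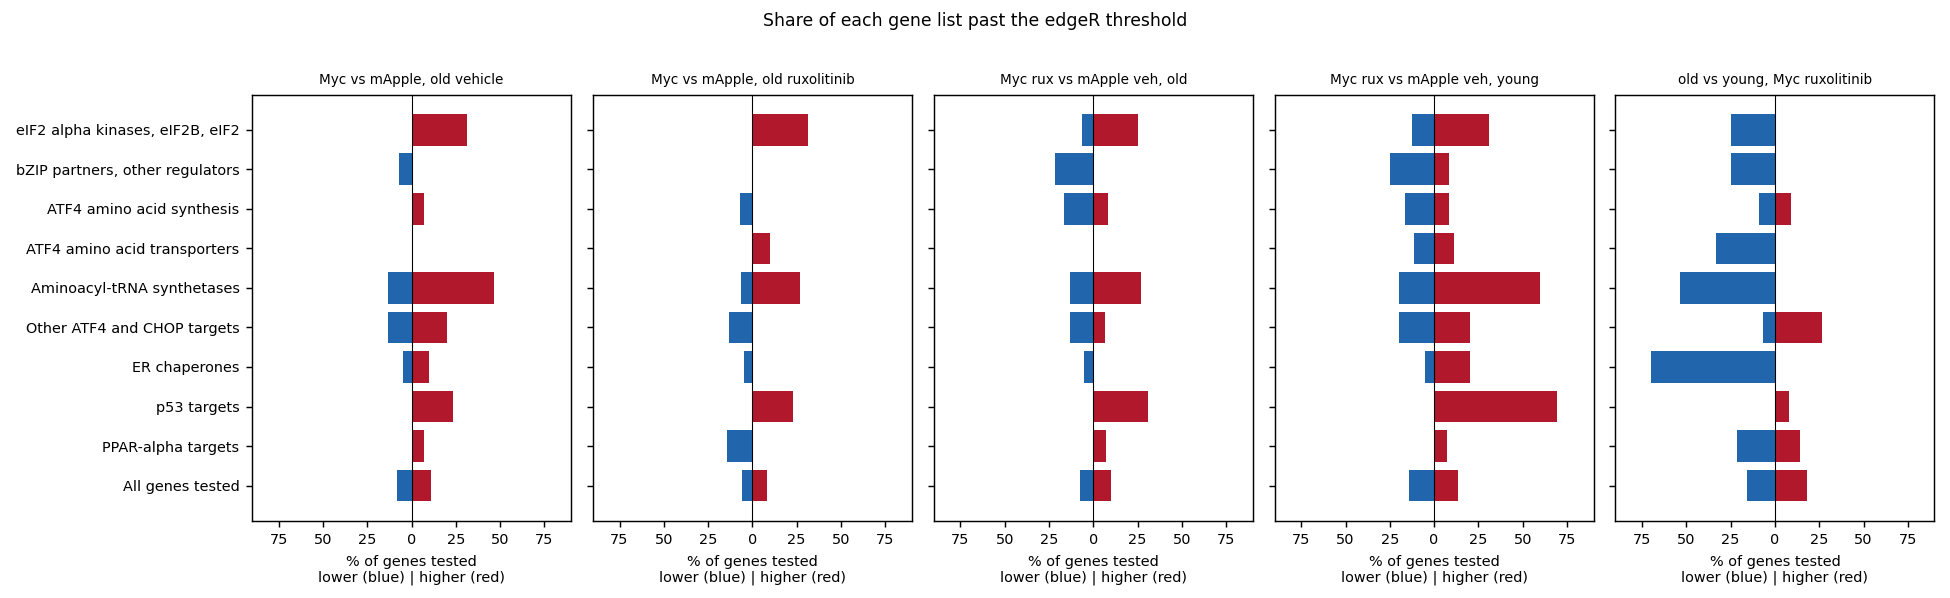
Share of the tested genes of each list that passed an edgeR adjusted p of 0.05, higher (red, to the right) or lower (blue, to the left), in 5 comparisons, with all genes tested in the last line. In young livers with Myc and ruxolitinib 9 of 13 p53 targets and 9 of 15 synthetases were higher, and 14 of 20 endoplasmic reticulum genes were lower in old than in young Myc ruxolitinib livers. Of all genes tested, 13.5% were higher in the former comparison and 15.6% lower in the latter.

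Members were only loosely coordinated between livers. After the mean of each group and batch was taken out of log2(CPM + 1), the median Pearson r over the 45 pairs of members was 0.12 (-0.49 to 0.66, n = 58 libraries). With two-sided permutation within group and batch (100000 draws) and adjustment over the 45 pairs, 4 pairs passed by Pearson and 3 by Spearman correlation. Ddit3 and Psat1 rose and fell together (r = 0.66, permutation p = 3.0e-05, adjusted p = 0.00135; rho = 0.64, permutation p = 1.0e-05, adjusted p = 4.5e-04), and the Spearman p is the smallest that the draws can give. Their r was 0.52 in the first batch, 0.77 in the second, 0.52 without libraries 1154 and 860 and 0.62 without libraries 860, 861, 864 and 865. Fgf21 and Ppp1r15a passed by Spearman correlation (rho = 0.46, permutation p = 9.0e-04, adjusted p = 0.0202) but not by Pearson (r = 0.34, permutation p = 0.0214, adjusted p = 0.107). Asns and Ppp1r15a went in opposite directions (r = -0.49, permutation p = 4.7e-04, adjusted p = 0.00705; rho = -0.44, permutation p = 0.00148, adjusted p = 0.0222), with r = -0.56 and -0.47 in the batches and -0.43 without libraries 1123 and 1136. Trib3 and Sesn2 passed by Pearson (r = 0.51, permutation p = 3.7e-04, adjusted p = 0.00705) but not by Spearman correlation (rho = 0.33, permutation p = 0.0230, adjusted p = 0.156), and r was 0.38 without libraries 1154 and 866. Asns and Psat1 were at the threshold (r = 0.39, permutation p = 0.00442, adjusted p = 0.0497; rho = 0.28, permutation p = 0.0438, adjusted p = 0.179), with r = 0.47 without libraries 1123 and 1136, and did not pass without libraries 860, 861, 864 and 865 (r = 0.38, permutation adjusted p = 0.0739). Without those 4 libraries Atf4 and Asns passed (r = -0.44, permutation adjusted p = 0.0195), which with all libraries had r = -0.37 (permutation p = 0.00780, adjusted p = 0.0702; rho = -0.33, permutation p = 0.0180, adjusted p = 0.156).

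The genes whose levels most resembled the mean log2(CPM + 1) of the 10 members over the 58 libraries, among 11749 genes with a mean log2 CPM of at least 1, were Il1rn (Spearman rho 0.646), Map3k14 (0.635), Rcn1 (0.634), Ifngr2 (0.627) and Cd14 (0.604). Il1rn encodes the antagonist of the interleukin-1 receptor, Map3k14 the kinase NIK, Rcn1 a calcium-binding protein of the endoplasmic reticulum, Ifngr2 a subunit of the interferon-gamma receptor and Cd14 a receptor for bacterial lipopolysaccharide. These values include differences between groups, ages and batches and are a description.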

How the data were processed

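Polyadenylated RNA from 58 whole livers had been sequenced. The authors deposited estimated counts per gene, made with STAR and HOMER on GRCm38 (mm10) per the submitters' processing notes, which state no versions. Per the file headers, 1 transcript stands for each gene, reads in exons were counted and no strand option was given. The deposited expected counts come in steps of 0.5 (29.9% are not whole) and were rounded to whole numbers, those midway to the even one. Depth was 10.68 to 40.98 M counts per library. Among 164 pairs of replicates of the same group and batch no 2 were identical, and the smallest chi-square per degree of freedom was 8.05.

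Genes were filtered with filterByExpr (minimum count 10), scaled by TMM and tested with edgeR 4.0.16 quasi-likelihood in R 4.3.3, with only the compared groups in each fit and sequencing batch as a covariate where both batches were present. P-values were adjusted by Benjamini-Hochberg over all genes tested (0.05). Alternatives used DESeq2 1.42.0, limma 3.58.1 (voom with quality weights), RLE scaling, no filter on low counts, a fit without batch, fits within each batch, 1 fit of all 58 libraries, libraries 860, 861, 864 and 865 left out, and each library left out in turn. Other steps used Python 3.11.15 (scipy 1.17.1, numpy 2.4.6, pandas 2.3.3), figures matplotlib 3.10.9, and scripts were tested on simulated data. Promoter sequences are RefSeq's, GRCm38.p6, and all 10 members matched by symbol. The genes named from each pathway list were up to 3 called genes per comparison in order of p. The members and the gene lists were chosen with earlier results of these data known.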

Additional observations from a re-analysis of the deposited data

Results flagged for a closer look

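Of 40 sets (10 genes in the 4 groups of 6, 8, 9 and 10 livers) examined for a single liver far from the others, 2 held one, where chance gives about 1 in 20. Asns reached 62.0 CPM in library 1123, a young liver with Myc and ruxolitinib, and the next of its 10 livers had 22.3 CPM. Fgf21 reached 3.33 CPM in library 1137, an old liver with mApple and vehicle, and the next of its 8 livers had 1.60 CPM.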

How the results depend on the processing

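None of the 13 calls changed sign under any alternative and 7 were lost under at least 1 of them, single libraries left out aside. Of the 86 values not called, 34 changed sign and 13 became called under at least 1 of the same alternatives. The number of members called changed as follows, and the cause was not tested. For ruxolitinib against vehicle in old Myc livers (1 member) it was 0 with limma voom, without the batch term, in the second batch alone, without libraries 860, 861, 864 and 865, and with counts midway between whole numbers rounded up, an alternative chosen after seeing the data. The first batch alone called Psat1 there and not Chac1, so an equal number can stand for another member. For Myc against mApple under vehicle (2) it was 1 without the batch term and 0 in the first batch alone, in the second alone and in a single fit of all 58 libraries. For Myc against mApple under ruxolitinib (1) it was 0 with limma voom, in the first batch alone and without those 4 libraries. These include library 865, the mApple ruxolitinib liver with the highest Fgf21. Fgf21, the member called with both batches, was not called in the second batch alone. For Myc with ruxolitinib against mApple with vehicle it was, in old livers (2), 1 without the batch term, in the first batch alone and without those 4 libraries, and 0 in the second batch alone, and in young livers (5) 8 with limma voom. For old against young mApple vehicle livers (0) it was 2 with DESeq2 and with limma voom, and for old against young Myc ruxolitinib livers (2) 3 with limma voom. With 1 library left out at a time it was 0 to 1, 0 to 3, 0 to 1, 1 to 3 and 4 to 6 in the comparisons above in that order up to young livers, 2 to 3 for old against young Myc ruxolitinib livers and 0 to 0 in the rest. Of correlated pairs, 4 passed by Pearson, 5 with CPM from library totals, 4 without those 4 libraries (Atf4 and Asns in, Asns and Psat1 out) and 3 by Spearman.

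The number of all genes called moved by more than 1.5 times as follows. Ruxolitinib against vehicle called 53 genes in mApple livers, 142 with DESeq2, 26 without the batch term, 6 and 11 in the first and second batch alone, and 20 to 75 without 1 library. In Myc livers it called 75, 168 with DESeq2, 44 without the batch term, 907 and 9 in the batches alone, 320 in the single fit and 48 to 83 without 1 library. Myc against mApple called 2544 under vehicle, 1468 without the batch term and 732 and 629 in the batches alone, and 2012 under ruxolitinib, 1033 without the batch term and 0 in the first batch alone. Myc with ruxolitinib against mApple with vehicle called 2403 in old livers, 1553 without the batch term, and 816 and 1496 in the batches alone. Old against young mApple vehicle livers called 145, 649 with DESeq2, 1640 with limma voom and 22 to 502 without 1 library. The interaction of age with Myc and ruxolitinib called 39, 198 with DESeq2, 597 with limma voom and 3 to 78 without 1 library.

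No paired analysis was possible because the titles carry library numbers that no 2 groups share. Fgf21, Psat1 and Chac1 rest on medians of 12, 26 and 34.5 counts per library, which limits their precision.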

Other observations

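Library 1154, an old liver with Myc and ruxolitinib from the second batch, was singled out after its values were seen. It had the highest Trib3 (43.0 CPM) and Ddit3 (14.6 CPM) of the 58 livers, with 9.78 CPM of Psat1, 21.0 CPM of Asns, 2.84 CPM of Fgf21 and 15.6 CPM of Sesn2. Its Asns and Fgf21 were the highest of its group, while other livers of the group had more Psat1 (up to 19.6 CPM) and Sesn2 (up to 18.1 CPM). Its Atf4 (110 CPM), Chac1 (2.22 CPM), Gdf15 (6.83 CPM) and Ppp1r15a (8.99 CPM) were neither the lowest nor the highest of the group. Its 10 Kupffer cell and macrophage genes summed to 248 CPM. It is 1 liver, and nothing was tested on it.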
